A study of Mus musculus with 15 samples.

Results

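The genes described here are 33 members of the p38 mitogen-activated protein kinase (MAPK) pathway, taken by symbol from a named list out of the 45905 genes in each of the 2 deposited tables of reads per gene. They comprise 4 p38 kinases, 3 MAP2 kinases, 5 MAP3 kinases with 2 adaptors, 3 Gadd45 proteins, 6 kinases that p38 phosphorylates, 4 transcription factors, 2 further effectors and 4 dual-specificity phosphatases. All 33 passed the filter on low counts in organoids and in gut tissue.

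The series is bulk poly(A) RNA sequencing of 15 mouse libraries in 5 groups of 3, from a study of plakoglobin, the junction protein encoded by Jup, in the intestine. The Tamoxifen organoids carry, by their titles, a floxed Jup gene (JUPfl/fl) and iVilCre ERT2, a Cre recombinase that the villin promoter drives in intestinal epithelium and that tamoxifen activates. The DMSO (solvent) and nativ organoids are titled JUPfl/fl with no Cre named. The gut tissue described as PG_KO is titled DSS colitis JUPfl/fl, and the tissue described as ctr is titled iVilCre ERT2JUPfl/fl, so titles and descriptions place the Cre in opposite groups. Grouping followed the descriptions, and Jup had 75.2, 82.8 and 80.3 CPM (counts scaled to 1000000 reads a library) in PG_KO tissue, against 302, 375 and 495 CPM in ctr tissue. In organoids it had 70.3 ± 1.2 CPM in the Tamoxifen group, against 384 ± 27.8 CPM in DMSO and 352 ± 67.2 CPM in nativ organoids (mean ± SD, n = 3 each). DSS, dextran sodium sulfate, injures the colon lining. The labels give it in the PG_KO titles only, and give no dose, time or age.

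Organoids of the Tamoxifen group are coded T41 and those of both other groups T75, so tamoxifen, the Cre transgene and the organoid line cannot be told apart. The labels do not say that replicates are separate cultures, so p-values measure the spread between these libraries, which may be technical. Cdx1 and Cdx2, transcription factors that define intestinal epithelium and were picked for this check after their values were seen, were at 99.3 to 109.6 and 326 to 335 CPM in Tamoxifen organoids. The DMSO organoids had 1 read of Cdx1 over the 3 libraries with Cdx2 at 15.5 to 17.8 CPM, and the nativ organoids 12 reads with Cdx2 at 15.9 to 17.8 CPM, so Cdx1, a marker of the labelled tissue, was nearly absent from both T75 groups. Hnf4a, a further factor of this check, was present in all groups, at 1051 to 1058 CPM in Tamoxifen, 161 to 225 CPM in DMSO and 99.9 to 168 CPM in nativ organoids. The 7 epithelial markers summed to 10592 to 10738 CPM in Tamoxifen, 6610 to 8027 CPM in DMSO and 8423 to 8566 CPM in nativ organoids. The 7 leukocyte markers summed to 17.0 to 17.8 CPM in Tamoxifen and 70.6 to 95.8 CPM in DMSO organoids. In nativ organoids they summed to 85.2 to 103.5 CPM. Only 1 of the 7 averaged over 1 CPM in DMSO and in nativ organoids, and 2 did in Tamoxifen organoids. Ptprc, which defines leukocytes, had 0 reads in DMSO and nativ organoids. It had reads in Tamoxifen organoids, where Adgre1 alone of the 7 had 0. The part of these differences in the results below was not tested. Organoid libraries held 25185053 to 30744563 reads and gut libraries 23194385 to 29257641.

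In the p38 pathway a MAP3 kinase, switched on by stress or cytokines, phosphorylates a MAP2 kinase, which phosphorylates p38. Active p38 phosphorylates further kinases, among them MK2, which steadies the mRNAs of cytokines by restraining tristetraprolin, and MSK1 and MSK2, which act on chromatin and on Creb and Atf1. Dual-specificity phosphatases strip the phosphates off again, and several of them are induced by the signal that they end. All of this switching is by phosphorylation, which RNA levels do not measure.

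The promoters of 3 members are printed because Hspb1 and Dusp1 had the largest falls of the 33 genes in organoids and Dusp8, a phosphatase like Dusp1, passed no test there. Each is the 250 bases before a RefSeq transcription start (GRCm38.p6), on the strand of the gene, with capitals marking motif matches. That of Dusp8 lies within the annotated span of its gene (142079487 to 142095907), before a start inside it, while those of Dusp1 and Hspb1 border theirs. Dusp1 (chr17:26508473-26508722, minus strand) and Dusp8 (chr7:142095285-142095534, minus strand) hold the cyclic AMP response element, TGACGTCA, which Creb1, Atf1 and Atf2 can bind, and Hspb1 (chr5:135887669-135887918, plus strand) holds the heat shock element GAANNTTC.
Dusp1: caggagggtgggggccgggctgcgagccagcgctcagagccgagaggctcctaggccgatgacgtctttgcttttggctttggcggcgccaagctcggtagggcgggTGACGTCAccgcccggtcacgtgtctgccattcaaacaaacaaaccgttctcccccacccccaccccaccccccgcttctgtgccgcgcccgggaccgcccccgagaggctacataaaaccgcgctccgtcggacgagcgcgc
Dusp8: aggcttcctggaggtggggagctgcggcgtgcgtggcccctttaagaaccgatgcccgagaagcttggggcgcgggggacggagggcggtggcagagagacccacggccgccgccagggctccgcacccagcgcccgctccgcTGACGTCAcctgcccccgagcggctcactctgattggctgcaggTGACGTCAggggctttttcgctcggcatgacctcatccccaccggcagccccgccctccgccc
Hspb1: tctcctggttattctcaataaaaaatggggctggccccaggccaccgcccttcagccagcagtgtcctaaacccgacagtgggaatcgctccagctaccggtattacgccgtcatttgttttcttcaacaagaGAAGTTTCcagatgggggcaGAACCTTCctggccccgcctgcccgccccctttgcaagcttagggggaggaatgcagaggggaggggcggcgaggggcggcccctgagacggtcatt
The match in Dusp1 lies 143 to 136 bases before the start, those in Dusp8 at 107 to 100 and 63 to 56, and those in Hspb1 at 117 to 110 and 97 to 90. The 32 members found in the RefSeq table have 40 promoters there, of which those 2 of Dusp1 and Dusp8 alone held TGACGTCA in this window on either strand, against 1.55% of all 32851 promoters. Its half-site TGACG, which lies within it, was in 14 of the 40 and in 17.8% of all promoters. GAANNTTC was in 4 of the 40 (Dusp16, Hspb1, Map2k4 and Mapk11) and 6.69% of promoters, and the AP-1 site TGANTCA in 2 of the 40 (Map2k6 and Rps6ka4) and 6.75% of promoters. These are matches of letters and not measured binding.

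Between Tamoxifen and DMSO organoids, 7 of the 33 members rose and 14 fell (edgeR quasi-likelihood test, adjusted p under 0.05 over all 16449 tested genes). Over all tested genes 66.3% were called, 33.9% higher and 32.4% lower, so the share of called members is near the background. Against nativ organoids 9 members rose and 13 fell, with 66.9% of all genes called, 33.5% in each direction. The median log2 change of the members was -0.09 against DMSO and -0.07 against nativ, and that of all tested genes 0.02 and 0.01. Scaling by library totals moved these medians against nativ to 0.04 for the members and 0.13 for all genes. The 2 comparisons share the Tamoxifen libraries. The libraries of 24 members did not overlap between Tamoxifen and DMSO, and those of 24 between Tamoxifen and nativ, where non-overlap held for 76.2% and 74.7% of all genes. In bulk RNA, fewer cells of a type and less RNA per cell cannot be told apart.

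**Figure D1:**
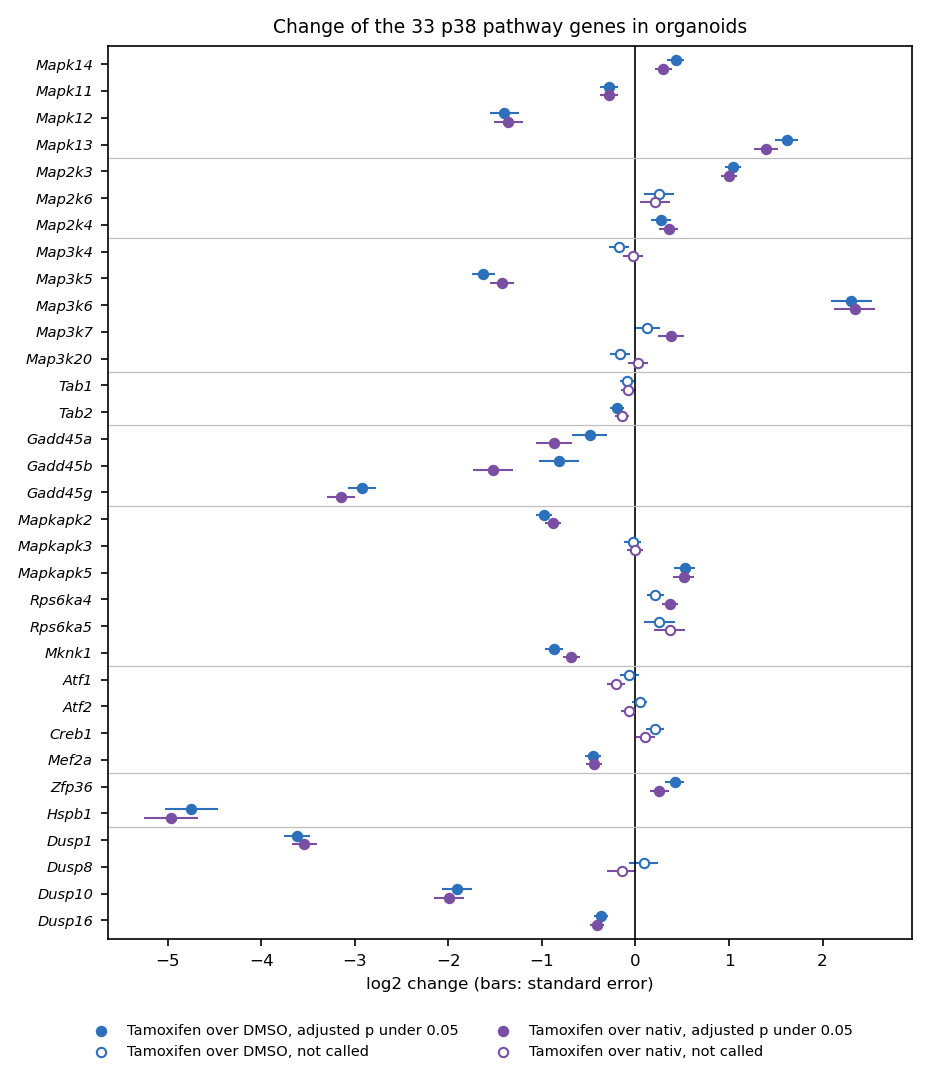
Log2 change (horizontal axis; bars, standard error) of each of the 33 members in Tamoxifen over DMSO and Tamoxifen over nativ organoids, n = 3 libraries a group, ordered by place in the pathway; filled points passed an adjusted p under 0.05. Hspb1, Dusp1 and Gadd45g lie farthest to the left and Map3k6, Mapk13 and Map2k3 farthest to the right in both comparisons.

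The 4 p38 kinases divided evenly. Mapk13 (p38 delta), the form typical of epithelia, had 427, 419 and 436 CPM in Tamoxifen organoids, against 127, 138 and 135 CPM in DMSO and 147, 163 and 135 CPM in nativ organoids. The lowest Tamoxifen library stood far above the highest of the others, and the gene rose 3.06-fold over DMSO (log2 1.62, SE 0.13, edgeR adjusted p = 9.90e-07) and 2.63-fold over nativ. Mapk14 (p38 alpha), the broadly expressed form through which most inflammatory p38 signalling runs, had 92.6, 91.4 and 96.9 CPM in Tamoxifen organoids, against 61.1, 64.8 and 73 CPM in DMSO and 74.3, 59.9 and 77.1 CPM in nativ organoids. It too was higher without overlap, by 1.35-fold (log2 0.43, SE 0.09, edgeR adjusted p = 0.00172) and 1.23-fold. The call against nativ was lost without Tamoxifen replicate 3 (edgeR adjusted p = 0.068).

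Mapk12 (p38 gamma), known best from muscle, went the other way, with 9.19, 7.29 and 7.37 CPM in Tamoxifen organoids, against 20.6, 22.4 and 17 CPM in DMSO and 20.9, 14.9 and 20.9 CPM in nativ organoids. Every Tamoxifen library was below every other organoid library (log2 -1.40, SE 0.15, edgeR adjusted p = 1.55e-05 against DMSO). Mapk11 (p38 beta), the close relative of p38 alpha, changed least, with 39.98, 41.6 and 37.9 CPM in Tamoxifen organoids, against 43.4, 46.8 and 48.4 CPM in DMSO and 50.1, 36.5 and 47.8 CPM in nativ organoids. Its log2 change of -0.28 against both passed the test (edgeR adjusted p = 0.0239 and 0.0249). Tamoxifen and nativ libraries overlapped, however, and the calls were lost without Tamoxifen replicate 1 or 3, without DMSO replicate 2 or 3 or nativ replicate 1 or 3, and with scaling by library totals (adjusted p up to 0.16 against DMSO and 0.259 against nativ). Without the low-count filter the call against nativ was lost as well (adjusted p = 0.0527).

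The genes of the 4 kinases sit in 2 adjacent pairs. Mapk14 and Mapk13 lie 20880 bases apart on chromosome 17 and both were higher, and Mapk12 and Mapk11 lie 904 bases apart on chromosome 15 and both were lower. Each pair shares its strand, and no annotated gene of the deposited tables lies between.

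**Figure D2:**
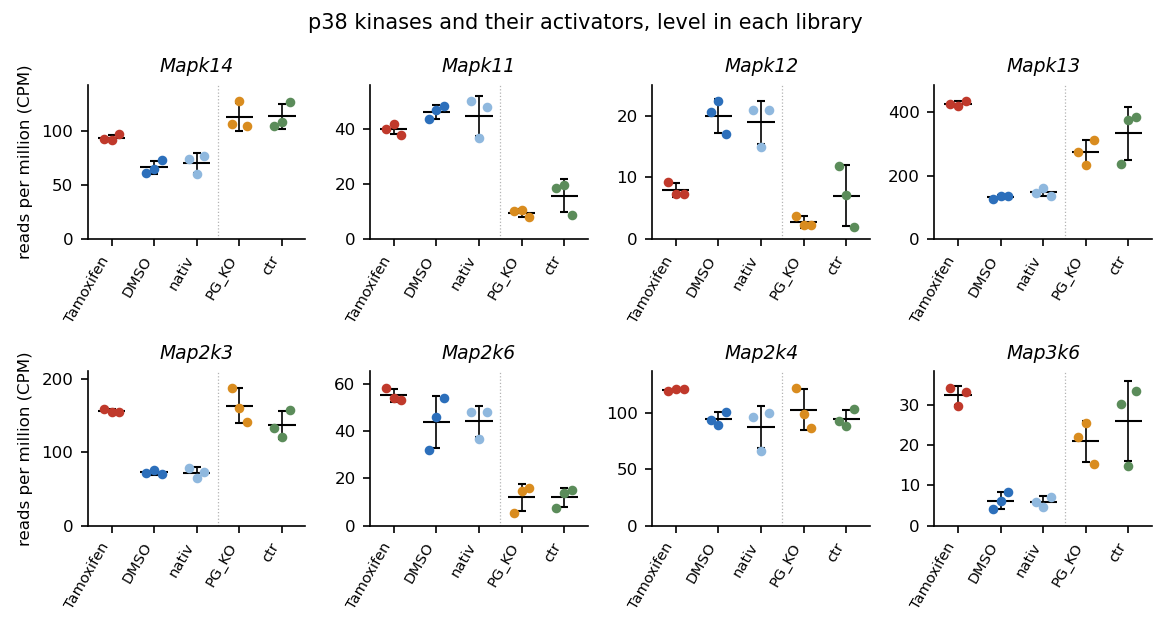
Level in CPM (vertical axes, from 0) of the 4 p38 kinases, the 3 MAP2 kinases and Map3k6 in each of the 15 libraries; points are libraries, bars the mean and SD of 3. In the organoid panels Mapk13, Map2k3 and Map3k6 stand highest in Tamoxifen, and Mapk11 and Map2k6 stand lower in the gut libraries than in any organoid library.

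As a share of the reads of the 4 kinases, Mapk13 took 75.1 ± 0.24% in Tamoxifen, 50.1 ± 0.69% in DMSO and 52.6 ± 5.95% in nativ organoids (SD, n = 3 each). The differences of 25.0 and 22.5 percentage points separated the groups in full, at the smallest p that 3 against 3 libraries allow (two-sided exact permutation p = 0.1 for each). Per kilobase of combined annotated exon, a scale that allows for gene length, Mapk13 made up 86.8% in Tamoxifen organoids. It made up 67.4% in DMSO and 69.6% in nativ organoids. Nativ replicate 2 had the highest Mapk13 share of its group, 59.4%, with the highest Mapk13 CPM and the lowest Mapk14, Mapk11 and Mapk12 CPM of the nativ libraries.

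**Figure D3:**
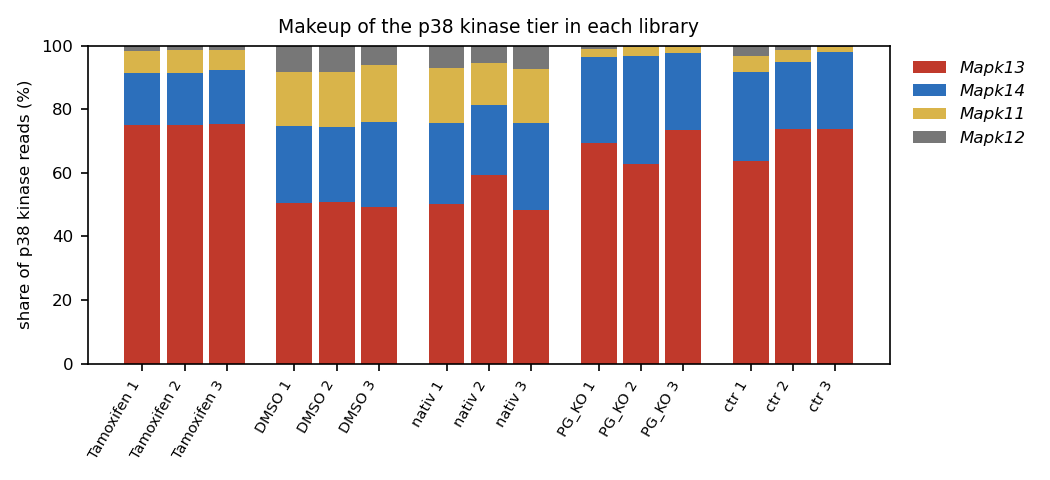
Share of the reads of the 4 p38 kinases (vertical axis, percent) that each kinase took in each of the 15 libraries. Mapk13 fills about the same part of the 3 Tamoxifen bars, near 75.1%, and of the 3 DMSO bars, near 50.1%, and varies more among nativ and gut libraries.

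Of the 3 MAP2 kinases, Map2k3 (MKK3), dedicated to p38, rose to 159.8, 156 and 155 CPM in Tamoxifen organoids, against 72.4, 75.5 and 69.98 CPM in DMSO and 79.3, 64.7 and 72.7 CPM in nativ organoids. The groups were wide apart, a 2.06-fold rise over DMSO (log2 1.04, SE 0.08, edgeR adjusted p = 1.11e-06). Map2k4 (MKK4), which serves both JNK and p38, had 119, 122 and 121 CPM in Tamoxifen organoids, against 94.2, 89.8 and 101 CPM in DMSO and 96.8, 65.9 and 101 CPM in nativ organoids. Its log2 rise of 0.28 and 0.35 passed narrowly (edgeR adjusted p = 0.0396 and 0.0127). The call against DMSO was lost when any 1 of the 6 libraries was left out, and the value against nativ was 0.22 without nativ replicate 2. Library totals and testing without the low-count filter also ended the call against DMSO (adjusted p = 0.0599 and 0.0778). Map2k6 (MKK6), the other dedicated p38 kinase, had 58.4, 53.9 and 52.9 CPM in Tamoxifen organoids, against 32.1, 45.9 and 53.8 CPM in DMSO and 47.8, 36.7 and 48 CPM in nativ organoids. The groups overlapped and neither comparison passed (95% interval of the log2 change against DMSO -0.10 to 0.61). As a share of the reads of Map2k3 and Map2k6, Map2k6 fell to 26.0 ± 0.70% in Tamoxifen organoids. It took 37.3 ± 6.38% in DMSO and 37.9 ± 1.82% in nativ organoids. Both groups stood apart from Tamoxifen (exact permutation p = 0.1 for each, the smallest possible). The annotated exons of Map2k6 combine to 12950 bases and those of Map2k3 to 2361, which shares of reads do not allow for. The lengths of the transcripts present were not measured. Per kilobase of exon, Map2k6 made up 6.01% in Tamoxifen, 9.92% in DMSO and 10.01% in nativ organoids.

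Of the 5 MAP3 kinases the 2 members of the ASK family moved in opposite directions. Map3k5 (ASK1), which thioredoxin holds inactive until oxidative stress releases it, had 22.1, 21.2 and 21.1 CPM in Tamoxifen organoids, against 59.6, 64.8 and 65 CPM in DMSO and 63.6, 38.9 and 58.7 CPM in nativ organoids. Its Tamoxifen libraries were all lower (log2 -1.62, SE 0.13, edgeR adjusted p = 1.03e-06 against DMSO). Map3k6 (ASK2), its partner in a complex, had 34.2, 29.7 and 33.1 CPM in Tamoxifen organoids, against 4.13, 6.15 and 8.39 CPM in DMSO and 5.96, 4.54 and 7.2 CPM in nativ organoids. It had the largest rise of the 33 members in both comparisons, 4.95-fold over DMSO (log2 2.31, SE 0.22, edgeR adjusted p = 5.03e-06) and 5.08-fold over nativ. Txn1, the thioredoxin that binds ASK1, averaged 854 ± 18 CPM in Tamoxifen and 216 ± 25.5 CPM in DMSO organoids, a 3.77-fold rise.

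The other MAP3 kinases and the adaptors moved little. Map3k7 (TAK1), which acts downstream of interleukin-1 and Tnf receptors, had a log2 change of 0.13 against DMSO (edgeR adjusted p = 0.434) and one of 0.38 against nativ (adjusted p = 0.0321). Only the second passed, and it lost that call without any 1 Tamoxifen library or without nativ replicate 1 or 2 (adjusted p up to 0.0955). Map3k4 (MEKK4), which Gadd45 proteins bind and activate, and Map3k20 (ZAK), a sensor of stalled ribosomes, passed neither test, with intervals against DMSO of -0.41 to 0.07 and -0.40 to 0.08. Tab2, which ties TAK1 to ubiquitin chains, passed only against DMSO, where it was lower (log2 -0.20, edgeR adjusted p = 0.0417, lost without any 1 Tamoxifen library or DMSO replicate 1 or 2 and with scaling by library totals, up to 0.293). The Tab2 call was lost also without the low-count filter (adjusted p = 0.118). Tab1, which can make p38 alpha phosphorylate itself, passed neither test.

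All 3 Gadd45 genes, stress-induced activators of MEKK4, fell in both comparisons. Gadd45g had 8.16, 7.48 and 8.19 CPM in Tamoxifen organoids, against 49.97, 58.4 and 63.9 CPM in DMSO and 71.9, 66.1 and 55.2 CPM in nativ organoids. No library overlapped, and the log2 change was -2.92 against DMSO (SE 0.15, edgeR adjusted p = 3.39e-08) and -3.14 against nativ. Gadd45b had 31.4, 32.6 and 36.9 CPM in Tamoxifen organoids, against 40.9, 70.4 and 57.5 CPM in DMSO and 92, 98.5 and 74.9 CPM in nativ organoids, and Gadd45a 59.2, 65.1 and 62.5 CPM in Tamoxifen organoids, against 61.8, 95 and 92.5 CPM in DMSO and 106, 117 and 89 CPM in nativ organoids. DMSO replicate 1 stood lowest of its group for all 3 genes, and for Gadd45a it lay within the Tamoxifen range. The log2 changes were -0.82 and -1.52 for Gadd45b and -0.49 and -0.87 for Gadd45a (edgeR adjusted p at most 0.0396). The Gadd45a call against DMSO was lost without any 1 Tamoxifen library, DMSO replicate 2 or DMSO replicate 3 (adjusted p up to 0.152).

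Among the 6 effector kinases Mapkapk2 (MK2), the main carrier of p38 alpha signals to cytokine mRNAs, fell to 119.5, 121 and 126 CPM in Tamoxifen organoids, against 236, 231 and 224 CPM in DMSO and 216, 199.6 and 209 CPM in nativ organoids. The groups stood far apart (log2 -0.98, SE 0.08, edgeR adjusted p = 2.06e-06 against DMSO). Mapkapk3 (MK3), its nearest relative, had 53.3, 53.2 and 49.3 CPM in Tamoxifen organoids, against 50.6, 51.2 and 49.99 CPM in DMSO and 50.2, 46.9 and 46.7 CPM in nativ organoids, and its 95% interval against DMSO was -0.22 to 0.16. Per kilobase, Mapkapk2 averaged 41.7 CPM in Tamoxifen and 78.5 in DMSO organoids, and Mapkapk3 14.6 in Tamoxifen and 14.2 in DMSO organoids, so MK2 stayed the more abundant transcript of the pair.

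Mknk1 (MNK1), which phosphorylates the cap-binding factor eIF4E and answers to ERK as well as p38, fell to 19.7, 17.5 and 18.1 CPM in Tamoxifen organoids, against 34.2, 29.9 and 32.4 CPM in DMSO and 26.9, 25.4 and 29.5 CPM in nativ organoids (log2 -0.87, SE 0.09, edgeR adjusted p = 1.16e-05 against DMSO). Mapkapk5 (MK5 or PRAK), also a partner of the atypical kinases ERK3 and ERK4, rose to 65.1, 63.9 and 63.1 CPM in Tamoxifen organoids, against 44.6, 44 and 38.4 CPM in DMSO and 43.7, 42.2 and 37.3 CPM in nativ organoids (log2 0.53, SE 0.11, edgeR adjusted p = 0.0018). Neither gene overlapped between Tamoxifen and the other organoids. Of the chromatin kinases, Rps6ka4 (MSK2) was called against nativ (log2 0.37, edgeR adjusted p = 0.00368) and just missed the threshold against DMSO (log2 0.21, adjusted p = 0.0544), while Rps6ka5 (MSK1), last of the 33 members per kilobase in all 5 groups, passed neither test.

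Of the 4 transcription factors only Mef2a, a muscle and stress factor that p38 phosphorylates, was called, with 28.1, 29.9 and 28.4 CPM in Tamoxifen organoids, against 36.9, 35.4 and 40.6 CPM in DMSO and 37.3, 31.7 and 39.2 CPM in nativ organoids (log2 -0.45, SE 0.09, edgeR adjusted p = 8.12e-04 against DMSO). Atf2, Creb1 and Atf1 had log2 changes between -0.21 and 0.21 in the 2 comparisons.

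The 2 remaining effectors differed most. Hspb1 (Hsp27), the small heat shock protein that MK2 phosphorylates, had 4.28, 4.07 and 4.13 CPM in Tamoxifen organoids, against 65.9, 109 and 145 CPM in DMSO and 130.02, 125 and 103 CPM in nativ organoids. This was the largest change of the 33 members, a 26.8-fold fall against DMSO (log2 -4.75, SE 0.28, edgeR adjusted p = 1.17e-07) and 31.2-fold against nativ. The DMSO libraries differed among themselves by more than those of the other organoid groups. Per kilobase Hspb1 was the most abundant member in DMSO and nativ organoids, at 118 and 132, while Mapk13 was first in Tamoxifen organoids, at 289. Zfp36 (tristetraprolin), which binds AU-rich elements and speeds decay of cytokine mRNAs until MK2 restrains it, rose to 94.5, 98.7 and 91.5 CPM in Tamoxifen organoids, against 61.8, 70.8 and 70.2 CPM in DMSO and 81.2, 69.4 and 68.7 CPM in nativ organoids. Its groups did not overlap (log2 0.42, edgeR adjusted p = 0.00371 against DMSO). The call against nativ (log2 0.26, adjusted p = 0.0417) was lost without any 1 Tamoxifen library or without nativ replicate 1 or 3 (adjusted p up to 0.164), and without the low-count filter (adjusted p = 0.0713).

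Of 12 mRNAs known for AU-rich elements that tristetraprolin and MK2 act on, 9 were tested in organoids, and all 9 fell in both comparisons, where 32.4% and 33.5% of all genes were called lower, with median log2 changes of -3.06 against DMSO and -3.28 against nativ. Il6, Il1b and Il10 did not pass the filter. Ier3, an early response gene, averaged 41.8 ± 2.61 CPM in Tamoxifen, 196 ± 33 CPM in DMSO and 231 ± 15.7 CPM in nativ organoids. The neutrophil chemokine Cxcl1 averaged 0.504 ± 0.133 CPM in Tamoxifen, 27.2 ± 9.55 CPM in DMSO and 42.6 ± 3.1 CPM in nativ organoids, and its relative Cxcl2 0.447 ± 0.145 CPM in Tamoxifen, 9.11 ± 4.05 CPM in DMSO and 16.3 ± 1.09 CPM in nativ organoids. The monocyte chemokine Ccl2 had 0 reads in Tamoxifen organoids, against 598 in DMSO and 1197 in nativ organoids, at least 207-fold and 401-fold lower with 3 reads taken as the limit over the 3 libraries. Both medians are the same with Ccl2 at that bound. The list was drawn up with earlier results of these data known, and Ccl2 passed the filter on low counts only through DMSO and nativ organoids. A gene admitted in that way could only fall, so the count of 9 and the medians are a description and no test.

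**Figure D4:**
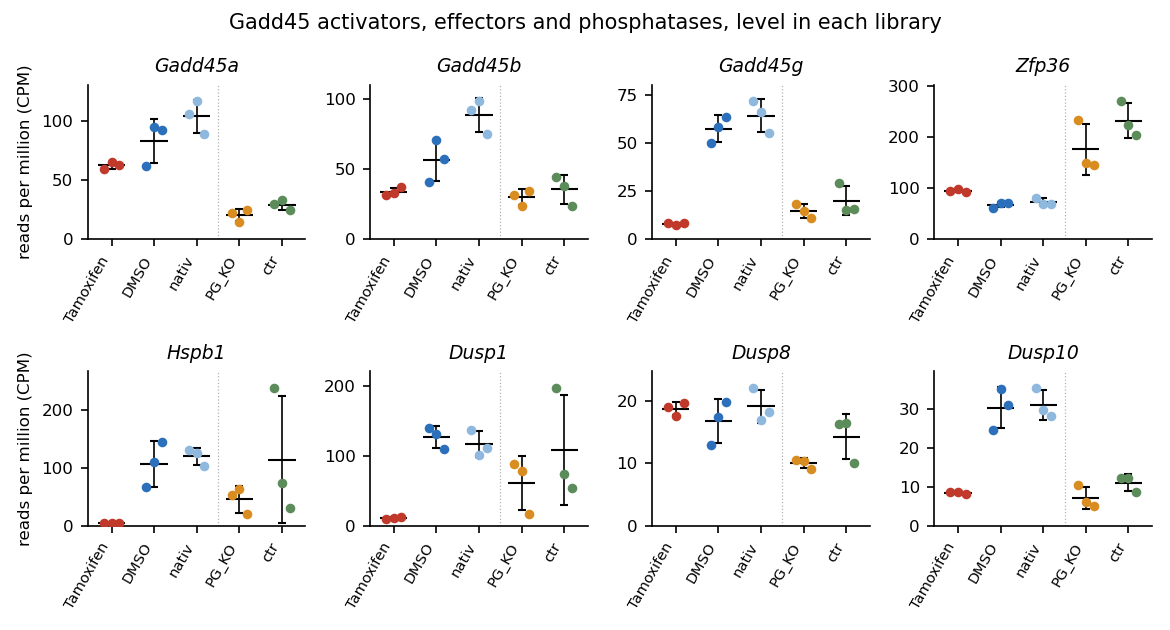
Level in CPM (vertical axes, from 0) of the 3 Gadd45 genes, Zfp36, Hspb1, Dusp1, Dusp8 and Dusp10 in each of the 15 libraries; points are libraries, bars the mean and SD of 3. Hspb1, Dusp1, Dusp10 and Gadd45g are near the bottom of their panels in all 3 Tamoxifen libraries, and ctr replicate 1 is the highest gut library for Hspb1 and Dusp1.

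Of the 4 phosphatases 3 fell in both comparisons. Dusp1 (MKP-1), an immediate early gene that inactivates p38 and JNK in the nucleus, had 10.1, 10.7 and 11.7 CPM in Tamoxifen organoids, against 139, 131 and 109 CPM in DMSO and 137, 100.5 and 112 CPM in nativ organoids. The highest Tamoxifen library was far below the lowest of the others, a 12.3-fold fall against DMSO (log2 -3.62, SE 0.14, edgeR adjusted p = 3.53e-09) and 11.6-fold against nativ. Dusp10 (MKP-5), which also prefers p38 and JNK, had 8.56, 8.75 and 8.16 CPM in Tamoxifen organoids, against 24.7, 35.1 and 31 CPM in DMSO and 35.5, 29.6 and 28.1 CPM in nativ organoids. It was lower without overlap (log2 -1.90, SE 0.16, edgeR adjusted p = 1.61e-06 against DMSO). Dusp16 (MKP-7), chiefly a JNK phosphatase that also acts on p38, had 58.6, 57.8 and 56 CPM in Tamoxifen organoids, against 70.2, 67.3 and 75.2 CPM in DMSO and 74.3, 63.6 and 73.3 CPM in nativ organoids, a smaller fall (log2 -0.37 and -0.41, edgeR adjusted p at most 0.00121). Dusp8, best known from brain and heart, had 19.1, 17.7 and 19.7 CPM in Tamoxifen organoids, against 13, 17.5 and 19.96 CPM in DMSO and 22.2, 17 and 18.3 CPM in nativ organoids, and its intervals were -0.25 to 0.43 against DMSO and -0.49 to 0.20 against nativ. Whether the element that its printed window shares with that of Dusp1 has a part in either level was not tested.

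The wider pathway and its sister branches were read from lists. Of 29 other p38 genes 26 were tested, and 5 rose and 12 fell against DMSO (6 and 11 against nativ). Pla2g4a, a phospholipase that releases arachidonic acid and is a p38 substrate, averaged 3.89 ± 0.369 CPM in Tamoxifen and 63.4 ± 12.6 CPM in DMSO organoids, and Dusp7, chiefly an ERK phosphatase, 7.64 ± 0.133 CPM in Tamoxifen and 57.3 ± 7.96 CPM in DMSO organoids. Ppm1b, a phosphatase of TAK1, averaged 175 ± 2.12 CPM in Tamoxifen and 63.2 ± 5.43 CPM in DMSO organoids. Of 6 tested genes of the JNK branch 1 rose and 3 fell in both comparisons. Mapk8, which encodes JNK1, averaged 59.6 ± 1.67 CPM in Tamoxifen and 33.9 ± 2.998 CPM in DMSO organoids, and the scaffold Mapk8ip1 6.47 ± 1.29 CPM in Tamoxifen and 41.8 ± 6.52 CPM in DMSO organoids. Of 12 genes of the ERK branch 4 rose and 2 fell against DMSO (4 and 3 against nativ). Etv4, an ETS factor that ERK signalling induces, averaged 64.3 ± 0.937 CPM in Tamoxifen and 23.6 ± 2.16 CPM in DMSO organoids, and the ERK inhibitor Spry2 14.4 ± 0.388 CPM in Tamoxifen and 44.5 ± 3.08 CPM in DMSO organoids. Over all tested genes 33.9% were called higher and 32.4% lower against DMSO, and 33.5% in each direction against nativ. Whether any of these short lists stands apart from those shares was not tested.

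The comparison of DMSO with nativ organoids asks what the solvent did within T75. None of the 33 members was called, nor was any other of the 16449 tested genes (0%), and DESeq2 called 152 genes (0.924%) but no member. Gadd45b alone had an unadjusted p under 0.05 (log2 -0.71, SE 0.21, unadjusted p = 0.00613, edgeR adjusted p = 0.291), against 14.6% of all genes. Its levels in DMSO and nativ organoids, given above, did not overlap, and Mapkapk2 and Mknk1 were higher in every DMSO than in every nativ library (log2 0.10 and 0.19, edgeR adjusted p = 0.567 and 0.369). Non-overlap held for 14.1% of all genes. The log2 changes of the members ran from -0.71 to 0.25, with a median of 0.0030. Of the other lists, Ccl2 had the smallest p (log2 -1.04, edgeR adjusted p = 0.291), and DESeq2 called it (adjusted p = 0.00681). Without overlap, Cxcl1 (log2 -0.70) and Ddit3 (-0.90) were also lower in DMSO organoids, and Pla2g4a (0.60) and Etv4 (0.27) higher.

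In gut tissue none of the 33 members was called between PG_KO and ctr, and no other of the 18043 tested genes was (0%), while DESeq2 called 469 genes (2.60%) and again no member. The log2 changes ran from -1.31 to 0.39 with a median of -0.06, against -0.03 for all genes. Even Jup (log2 -2.29, SE 0.23) had an edgeR adjusted p of 0.163 in the main fit. It was called by DESeq2 (adjusted p = 2.28e-14) and by edgeR without the low-count filter (adjusted p = 0.0289). The edgeR adjusted p was 0.033 without ctr replicate 3. Without that library 1478 genes were called, none of them a member.

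The gut libraries differed in the tissue they held. Markers of smooth muscle summed to 639, 940 and 1241 CPM in PG_KO tissue, against 4467, 3609 and 706 CPM in ctr tissue, and those of fibroblasts to 629 to 1367 CPM in PG_KO, against 919 to 3627 CPM in ctr. Endothelial markers summed to 30.8 to 93.8 CPM in PG_KO, against 46.8 to 232 CPM in ctr, neuronal and glial markers to 53.6 to 72.2 CPM in PG_KO, against 80.7 to 185 CPM in ctr, and leukocyte markers to 136 to 304 CPM in PG_KO, against 348 to 895 CPM in ctr. Epithelial markers summed to 11992 to 15033 CPM in PG_KO, against 7582 to 12271 CPM in ctr. All 7 smooth muscle, 6 fibroblast, 5 endothelial, 6 neuronal and 7 leukocyte markers had negative log2 changes and all 7 epithelial ones positive. None was called, and their part in the results in gut was not tested.

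**Figure D5:**
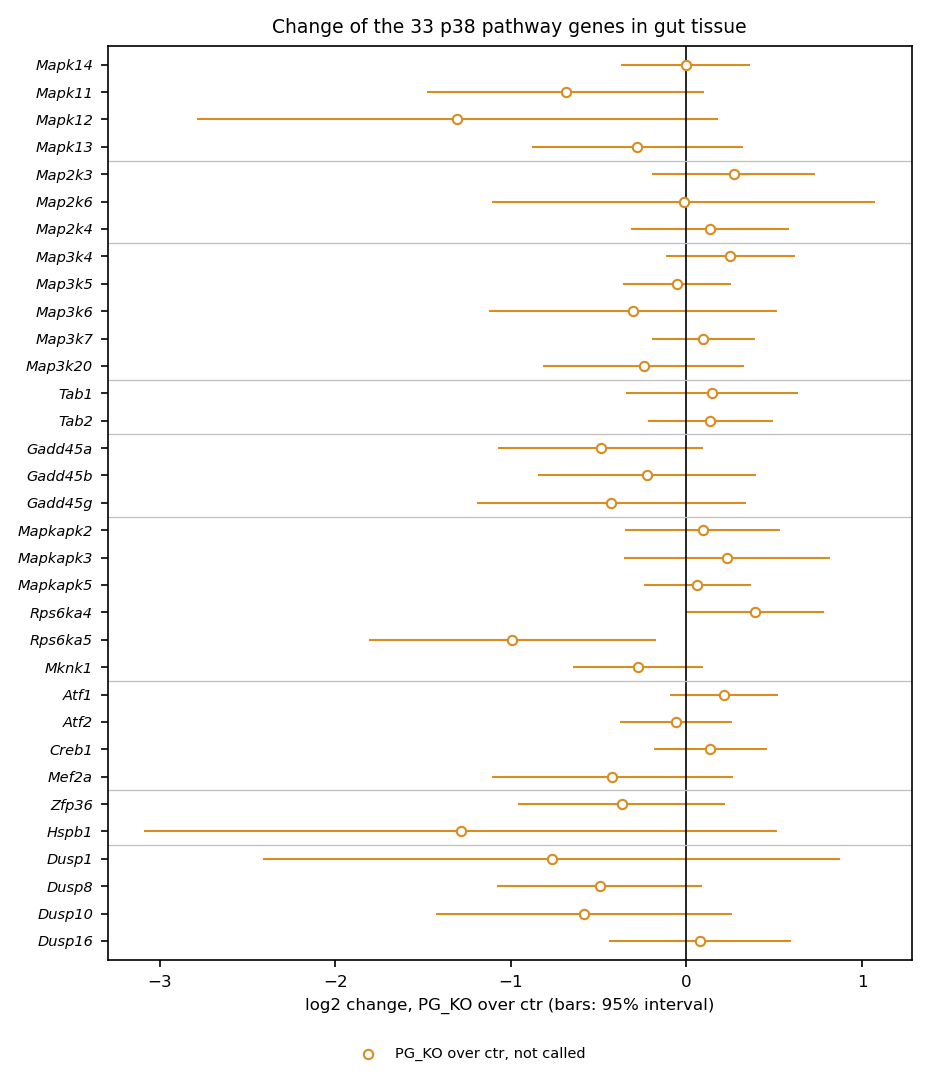
Log2 change (horizontal axis; bars, 95% interval) of each of the 33 members in PG_KO over ctr gut tissue, n = 3 libraries a group, ordered by place in the pathway. No member was called, and the intervals of Hspb1, Mapk12, Dusp1 and Map2k6 are the widest.

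Mapk14 had 106, 128 and 104 CPM in PG_KO tissue, against 105, 108 and 127 CPM in ctr tissue, so the groups overlapped and the interval of the log2 change was -0.37 to 0.36. Mapk13 had 274, 235 and 313 CPM in PG_KO, against 238, 377 and 387 CPM in ctr tissue, and its interval of -0.88 to 0.32 lies below the rise seen in organoids. It took 68.5 ± 5.41% of the p38 kinase reads in PG_KO tissue and 70.4 ± 5.77% in ctr tissue (SD, n = 3 each; exact permutation p = 0.5). Mapk12, at 3.81, 2.22 and 2.22 CPM in PG_KO, against 11.9, 7.2 and 2.03 CPM in ctr tissue, and Mapk11, at 10.3, 10.5 and 7.84 CPM in PG_KO, against 18.7, 19.6 and 8.76 CPM in ctr tissue, were highest in ctr replicates 1 and 2. Those libraries also had the highest sums of smooth muscle, fibroblast and endothelial markers, and a link to tissue makeup was not tested. Both groups of tissue had less Mapk11 per kilobase, at 3.91 in PG_KO and 6.42 in ctr, than the organoids, at 16.3 to 18.9, a difference that was not tested across the 2 tables.

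Rps6ka5 had 1.97, 3.52 and 2.56 CPM in PG_KO tissue, against 6.3, 6.12 and 3.71 CPM in ctr tissue. The groups stood apart, and this was the only member with an unadjusted p under 0.05 (log2 -0.99, interval -1.81 to -0.17, unadjusted p = 0.0242, edgeR adjusted p = 0.33), against 15% of all genes. Its relative Rps6ka4 had 113, 122 and 94 CPM in PG_KO, against 99.3, 84.2 and 70.8 CPM in ctr tissue, with overlap (log2 0.39, adjusted p = 0.333). Map3k4 was the other member whose groups did not overlap, at 42.6, 45.5 and 44.4 CPM in PG_KO, against 31.8, 38.7 and 41.5 CPM in ctr tissue (log2 0.25, edgeR adjusted p = 0.423), and 18.6% of all genes did not overlap.

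Hspb1 and Dusp1 varied widely within both gut groups. Hspb1 had 52.5, 64 and 19.2 CPM in PG_KO tissue, against 238, 73.6 and 29.9 CPM in ctr tissue, and Dusp1 88.3, 78.7 and 17.2 CPM in PG_KO, against 197, 73.3 and 53.1 CPM in ctr tissue. Both were highest in ctr replicate 1 and lowest in PG_KO replicate 3, and with these 2 libraries left out, a choice made after seeing the data, the log2 changes of -1.29 and -0.77 became 0.16 and 0.40. Zfp36, at 233, 148 and 146 CPM in PG_KO, against 270.2, 223 and 203 CPM in ctr tissue, overlapped too (interval -0.96 to 0.22). Of the 12 AU-rich mRNAs 10 had a positive change in gut, none called. Their median was 0.70, against -0.03 for all tested genes, whose share of positive changes was not taken. The list was drawn up with earlier results of these data known, so the count and the median are a description and no test. Csf2 (log2 1.85, edgeR adjusted p = 0.363) and Il10 (log2 -2.10, adjusted p = 0.386) had the smallest p of the 12. Both were near or under 1 CPM in a group. Ptgs2, the prostaglandin synthase of inflammation, was chosen after its values were seen. It averaged 126 ± 158 CPM in PG_KO, with an SD above the mean, and 44.9 ± 24 CPM in ctr tissue. The Gadd45 genes had negative log2 changes, -0.49, -0.22 and -0.43 for Gadd45a, Gadd45b and Gadd45g, and none was called. In the lists of other p38 genes and the JNK branch, Ptpn7 (log2 -1.25), Mef2c (-1.51), Jun (-0.90) and Mapk8ip1 (-1.45) had the smallest p. In the ERK branch Etv4 (log2 0.74) and Map2k2 (0.30) did. The main edgeR fit called none of them (adjusted p = 0.330 to 0.361), and DESeq2 called Ptpn7 (adjusted p = 0.0363).

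The 2 models were compared by testing whether the change of PG_KO against ctr tissue differed from that of Tamoxifen against DMSO organoids, in 1 fit of 12 libraries. The difference passed for 14 of the 33 members, 7 positive and 7 negative, against 36.4% of 19141 tested genes (15.7% positive and 20.7% negative). It passed for 9 members, 7 positive and 2 negative, without Tamoxifen replicate 1 or 2, and for 3 negative ones without Tamoxifen replicate 3 or PG_KO replicate 2 or 3. The median difference was -0.03 for the members and -0.14 for all genes, but with 1 library left out these ran from -0.10 to 0.25 and from -0.18 to -0.01. The members' median was negative only without PG_KO replicate 1 or DMSO replicate 2 or 3, and highest without ctr replicate 1. Mapk13 had the clearest negative difference among the p38 kinases, of -1.94 in log2 units (SE 0.26, edgeR adjusted p = 2.21e-04), and Map3k6 the largest negative one of all members, -2.66 (SE 0.46, adjusted p = 0.0011). Map3k5 (1.52, SE 0.13, adjusted p = 8.64e-06) and Gadd45g (2.44, SE 0.37, adjusted p = 5.36e-04) were the clearest positive ones. The models differ in organoid line, transgene and treatment as well as in tissue, which cannot be told apart.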

How the data were processed

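The authors' deposited tables hold unscaled reads per gene (expected counts) for 9 organoid and 6 gut libraries; per the submitters' processing notes, the tools were bcl2fastq (2.20.0.422), cutadapt (version 2.5), STAR (version 2.7.2b), featureCounts (version 1.6.4) of Subread and DESeq2, and the build GRCm38.p6. Strand setting and filters are not given in the sources used here, so reads of overlapping antisense genes cannot be told apart. Between 10.4% and 13.7% of a library's values are not whole, and near-identical gene copies may share reads. Per the labels, RNA had integrity numbers of at least 7.7.

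Values were rounded and tested with edgeR 4.0.16 (R 4.3.3; TMM factors, filterByExpr by group, robust quasi-likelihood F test, Benjamini-Hochberg adjustment over all tested genes, calls at adjusted p under 0.05), in 1 fit of 9 organoid libraries, 1 of 6 gut libraries and 1 of 12 libraries for the difference between models. The steps for Tamoxifen against DMSO and for PG_KO against ctr were also run on simulated data in which few genes changed. That setting differs from the organoid comparison, where 66.3% of genes were called. A standard error is the size of the log2 change over the root of its F value. CPM were taken from totals of 23194385 to 30744563 reads a library. Shares were compared by exact permutation. Alternatives were DESeq2 1.42.0, scaling by its size factors or by library totals, testing without the low-count filter, a block for replicate number, a fit to the 6 libraries of a comparison, and each library left out in turn.

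The members, lists and rules were chosen with earlier results of these data known. Members were all described, and from each other list up to 4 genes were named, those with the smallest p. Beyond that rule, Ptgs2, Cdx1, Cdx2 and Hnf4a were chosen after their values were seen. 1 gut column name spells ctr as gtr and was taken as ctr from its code.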

Additional observations from a re-analysis of the deposited data

Results flagged for a closer look

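For 14 members the change of PG_KO against ctr tissue differed from that of Tamoxifen against DMSO organoids by a test of the difference itself (edgeR, adjusted p under 0.05 over 19141 genes, of which 36.4% passed). Each value here is the log2 change in gut minus that in organoids. Negative differences were found for Map3k6 (-2.66), Mapk13 (-1.94), Rps6ka5 (-1.31), Zfp36 (-0.84), Map2k3 (-0.82), Mapkapk5 (-0.52) and Mapk14 (-0.48). Positive differences were found for Hspb1 (3.39), Dusp1 (2.79), Gadd45g (2.44), Map3k5 (1.52), Dusp10 (1.27), Mapkapk2 (1.02) and Mknk1 (0.54).

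Calls for Mapk13, Map3k5, Map3k6, Gadd45g, Mapkapk2, Hspb1 and Dusp1 held when any 1 of the 12 libraries was left out, with adjusted p up to 0.049 for Dusp1. The call for Mapk14 was lost without any 1 of the gut or Tamoxifen libraries or without DMSO replicate 1 or 2, with values of -0.30 without PG_KO replicate 3 and -0.24 without ctr replicate 3. Zfp36 lost its call without any 1 library other than PG_KO replicate 1 or ctr replicate 3 (adjusted p up to 0.122). Mapkapk5 lost its call without PG_KO replicate 2 or 3, ctr replicate 3 or any 1 Tamoxifen library (-0.35 without PG_KO replicate 2 and also without ctr replicate 3), Map2k3 without PG_KO replicate 2 or 3 or Tamoxifen replicate 1 or 2, and Rps6ka5 without any 1 Tamoxifen library. Dusp10 lost its call without PG_KO replicate 1 (0.83) or DMSO replicate 2 or 3, and Mknk1 without ctr replicate 2. Without the low-count filter the calls for Mapk14, Mapkapk5 and Zfp36 were lost (adjusted p = 0.177, 0.09 and 0.0566). With ctr replicate 1 and PG_KO replicate 3 left out together, a choice made after seeing the data, Mapk14, Rps6ka5 and Zfp36 lost theirs (adjusted p = 0.095, 0.0646 and 0.157).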

How the results depend on the processing

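Lost calls other than under a replicate block stand beside each gene, and the direction of a called member held in every alternative run. Members that gained a call were Rps6ka4 against DMSO with DESeq2 (adjusted p = 0.0379), in the fit to 6 libraries (0.0327) and without DMSO replicate 1 (0.0389), Map3k4 against DMSO in the fit to 6 libraries (0.047) and, against nativ, Rps6ka5 with library totals (0.0445) or without nativ replicate 3 (0.0258), Tab2 without nativ replicate 2 (0.0334) and Atf1 without nativ replicate 1 (0.0308). Counting all genes, DESeq2 called 152 between DMSO and nativ and 469 between PG_KO and ctr, and fits with no low-count filter called 2 and 5; leaving out 1 library gave 0 to 1 and 0 to 1478. The number of members whose change differed between gut and organoids ran from 9 to 17 when 1 library was left out, 9 without Tamoxifen replicate 1 or 2.

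Values near 0 changed sign with the scaling. With library totals, Mapkapk3 and Atf1 were at 0.038 and 0.0026 against DMSO, and Map3k4, Tab1, Mapkapk3 and Atf2 at 0.085, 0.042, 0.12 and 0.042 against nativ; Mapkapk3 against nativ was 0.0064 with DESeq2 and 0.0059 with its size factors. With ctr replicate 1 and PG_KO replicate 3 left out together, chosen after seeing the data, PG_KO against ctr gave 0.070 for Gadd45g, 0.031 for Mef2a, 0.16 for Hspb1, 0.40 for Dusp1 and 0.054 for Il10. None of these was called.

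When 1 library was left out, log2 changes against DMSO ran from -0.059 to 0.0098 for Mapkapk3 and -0.080 to 0.21 for Dusp8, and against nativ from -0.14 to 0.044 for Map3k4, -0.084 to 0.12 for Map3k20 and -0.060 to 0.033 for Mapkapk3; Jup between DMSO and nativ ran from -0.0029 to 0.15. The Mapk13 share differed by -4.72 to 0.89 percentage points between DMSO and nativ and by -5.24 to 1.02 between PG_KO and ctr, and the Map2k6 share by -3.59 to 2.78 and by -2.43 to 1.22. The cause of these shifts was not tested.

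Deviations of same-numbered libraries from their group means correlated at 0.29, -0.18 and 0.15 in gut and at -0.12 to 0.19 in organoids. Those of differently numbered libraries correlated at -0.31 to 0.21 in gut and at -0.15 to 0.15 in organoids. With 3 libraries a group, these values cannot decide whether replicate numbers pair the samples. With a replicate block, 7 members rose and 13 fell against DMSO, 9 rose and 13 fell against nativ, 0 were called between DMSO and nativ and between PG_KO and ctr, and 12 differed between gut and organoids; the calls it ended were those of Tab2 against DMSO (adjusted p = 0.0714) and of Mapk14 and Mknk1 between gut and organoids (0.0868 and 0.0545). With 3 libraries a group, genes under 3 reads in a group cannot be resolved. The gut comparison, where the main edgeR fit did not call even Jup (log2 -2.29), can miss changes of several fold.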
